A study of Mus musculus with 17 samples.

Results

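The response of *Usb1* knockout cells to 1 day of retinoic acid (RA) was read from 6 of the 17 RNA-seq libraries of the study. These are the *Usb1* knockout libraries of day 0 (replicates 1 to 3) and of day 1 (replicates 1 to 3), chosen by genotype and time point alone. All 17 libraries come from R1 cells, a mouse embryonic stem cell line, that were either wild-type or *Usb1* knockout. Cells of day 0 had not received RA, and cells of day 1 and day 3 had been in RA for 1 and 3 days, at a dose that the labels do not state. Each group had 3 replicates, except wild-type cells at day 0 with 2. The knockout libraries come from 1 line, KO-1, made with CRISPR/Cas9, so a property of this clone and the loss of *Usb1* cannot be told apart. The study describes the replicates as independent biological ones. The comparison asks which genes changed within the first day of differentiation in cells without *Usb1*.

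RA is the active form of vitamin A. It enters the nucleus and binds the RA receptors, which sit on DNA together with the retinoid X receptors and switch from repressing to activating their targets. In embryonic stem cells RA ends self-renewal, which depends on the cytokine LIF and on a network of transcription factors around *Pou5f1*, *Sox2* and *Nanog*. Well known early targets are the enzymes that degrade RA and the 3′ genes of the Hox clusters. *Usb1* encodes the exonuclease that trims the 3′ end of U6 snRNA, the small RNA at the catalytic centre of the spliceosome.

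The values are TPM, a measure of transcript level scaled to gene length and to the library total, and a difference is given as mean ± SE on the log2(TPM + 1) scale, on which low genes appear to change less than they did. Each adjusted p is from limma over all genes tested, with the Benjamini-Hochberg correction. Reads on genes, recovered from TPM, numbered 15404379 to 15830996 at day 0 and 15505026 to 16528195 at day 1. Mitochondrial genes took 5.03% to 5.56% of TPM and ribosomal protein genes 8.06% to 9.96% in these 6 libraries. *Usb1* stood at 15.5, 15.2 and 17.9 TPM before RA and at 20.7, 21.4 and 18.5 TPM after 1 day of RA in the knockout, and at 40.0 and 37.1 TPM in wild-type cells at day 0. The knockout libraries lay below both wild-type ones, but the edited gene is still transcribed, so this level does not read the edit itself. From day 0 to day 1 *Usb1* differed by 0.30 ± 0.10 (SE, adjusted p = 0.0423), less than the 2-fold change required for a call. The defining markers of embryonic stem cells were abundant at day 0. *Pou5f1*† was at 1390 ± 97.7 TPM, *Sox2*† at 966 ± 74.9 TPM and *Nanog* at 811 ± 47.8 TPM (SD, n = 3). Genes marked † lie outside the fixed rule for naming genes and were chosen after their values had been seen.

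Of 17237 genes with at least 1 TPM in at least 3 of the 6 libraries, 1592 (9.24%) were called, that is, changed at least 2-fold with an adjusted p under 0.05. After 1 day of RA 914 genes had risen (5.30% of those tested) and 678 had fallen (3.93%). The excess of rises depends on the scaling, with 767 rises and 773 falls at equal medians and 800 and 751 after quantile normalization. It was larger with a pseudocount of 0.1, at 1171 and 783, and by voom on recovered reads, at 1359 and 763. Changes of 4-fold or more were seen in 251 genes, of which 142 rose and 109 fell. The libraries of the 2 days did not overlap for 1584 of the called genes, but they did not overlap for 52.0% of all genes tested either. The median difference over all genes tested was 0.03, and the median SD within a group was 0.129. Protein-coding genes made up 778 of the rises and 374 of the falls, among 12947 tested. The threshold matters for the count, since 6694 genes (38.8%) had an adjusted p under 0.05 at any size of change.

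**Figure D1:**
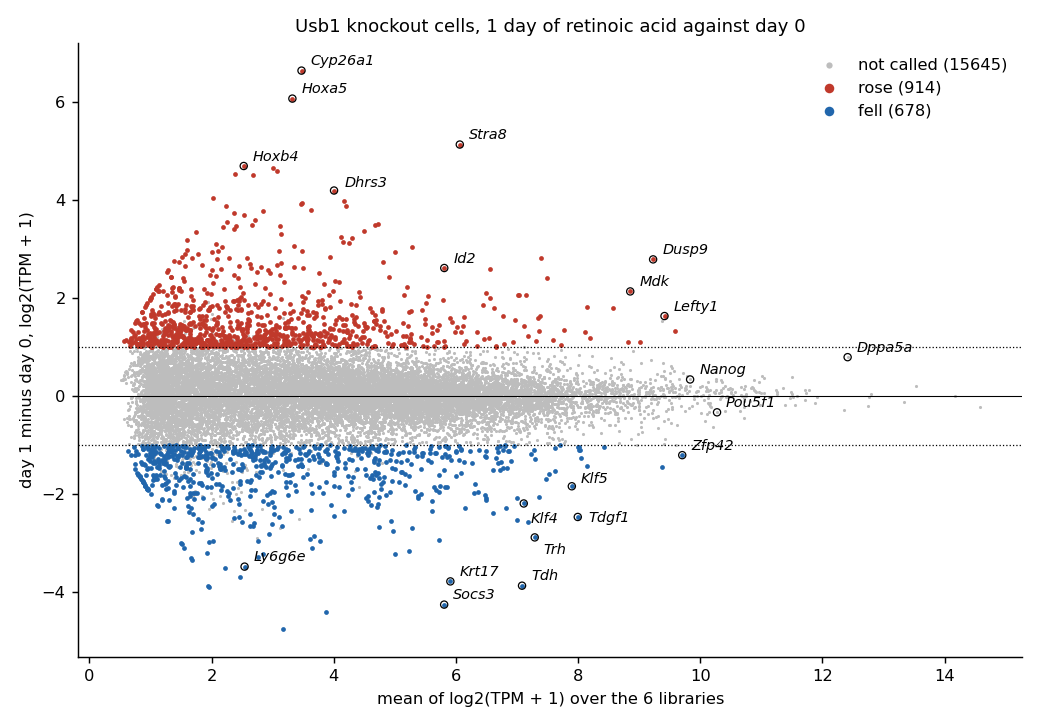
Difference between day 1 and day 0 in *Usb1* knockout cells (vertical axis, log2(TPM + 1)) against the mean level over the 6 libraries (horizontal axis, log2(TPM + 1)) for the 17237 genes tested. Red points are the 914 genes that rose, blue points the 678 that fell, grey points the genes not called, dotted lines mark 2-fold. *Cyp26a1*, *Hoxa5* and *Stra8* stand highest, and *Socs3*, *Tdh* and *Krt17* are among the lowest, while *Pou5f1* and *Nanog* lie between the dotted lines.

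The gene with the largest rise was *Cyp26a1*, which encodes the cytochrome P450 that breaks down RA. It read 0, 0.354 and 0 TPM at day 0 and 116, 107 and 108 TPM at day 1. The groups are far apart, and day 0 rests on 3 reads in 1 library, so the ratio of the means, 934, has a 95% counting interval of 319 to 4532. *Cyp26c1*, a related RA hydroxylase, went from 0.496, 0.240 and 0 TPM to 18.3, 18 and 15.1 TPM. *Dhrs3*, the reductase that returns retinaldehyde to retinol, went from 2.66, 3.15 and 2.45 TPM to 75.5, 65.2 and 63.3 TPM, a difference of 4.20 ± 0.11 (adjusted p = 1.89e-06). The 3 genes have in common that they lower the amount of RA in the cell, and for each of them every day 1 library lay above every day 0 library.

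Some genes of retinol and RA transport also rose. *Crabp2*†, which brings RA to its receptors, rose from 1.90 ± 0.795 to 8.91 ± 2.39 TPM. *Stra6*†, the membrane receptor that takes up retinol, rose from 0.0483 ± 0.0547 to 3.76 ± 1.12 TPM. *Rbp4*†, the serum retinol carrier, and *Lrat*†, which esterifies retinol for storage, rose less, by 1.19 ± 0.30 and 1.06 ± 0.20 (adjusted p = 0.0181 and 0.00677).

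Among the receptors, *Rarb*† rose. It read 0.329, 0 and 0.371 TPM at day 0 and 4.31, 4.23 and 4.48 TPM at day 1, with no overlap and a difference of 2.13 ± 0.20 (adjusted p = 0.000307). The RA receptor genes with the higher levels were not called. *Rarg* was at 105 ± 3.91 TPM at day 0 and 119 ± 4.51 TPM at day 1, and *Rara* at 61.4 ± 2.50 and 76.4 ± 2.87 TPM. *Cyp26b1*†, the remaining gene of the RA hydroxylase family, was at 0.697 ± 0.483 and 1.35 ± 0.234 TPM, and its libraries overlapped. In all, 9 of the 20 genes listed for RA metabolism, binding and reception rose, none fell and 3 were too low to test. The median difference over the 20 was 0.46. Because 5 of the 17 tested genes passed the filter through 1 of the days alone, this count of rises is a description.

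RA receptors bind as pairs to repeats of a 6-base unit, here taken as AGGTCA or AGTTCA or GGTTCA or GGGTCA. Direct repeats of this unit with 5 or 2 bases between the units were sought on both strands of the RefSeq promoters (GRCm38.p6), which run from 250 bases before to 50 bases after a gene's start. A repeat with 5 bases between the units was found in 32 of 32851 promoters (0.0974%), and 2 of the 613 risen genes with a promoter held one, *Cyp26a1* and *Rarb*†. With 2 bases between the units, 88 promoters (0.268%) had a match, 3 of them of risen genes, *1810020O05Rik*†, *Ano1*† and *Tinagl1*†. Among all 10768 tested genes with a promoter, 5 had the wider and 15 the narrower repeat. The 2 promoters with the wider repeat are printed because they belong to the RA-degrading enzyme with the largest rise and to the receptor that rose. The 250 bases before the start are given 5′ to 3′ along the gene, with the repeat in capitals. That of *Cyp26a1* lies at chr19:37697558-37697807 on the plus strand, its repeat reads on the opposite strand of the gene and ends 15 bases before the start. That of *Rarb* lies at chr14:16575477-16575726 on the minus strand, inside the GENCODE span of the gene, and its repeat ends 36 bases before the start. The letters are a description of the sequence and no evidence of binding in these cells.
Cyp26a1: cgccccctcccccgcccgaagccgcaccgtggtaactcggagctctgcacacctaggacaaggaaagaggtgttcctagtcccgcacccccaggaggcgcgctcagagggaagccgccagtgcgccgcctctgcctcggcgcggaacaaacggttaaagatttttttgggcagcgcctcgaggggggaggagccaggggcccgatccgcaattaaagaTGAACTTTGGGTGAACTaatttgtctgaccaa
Rarb: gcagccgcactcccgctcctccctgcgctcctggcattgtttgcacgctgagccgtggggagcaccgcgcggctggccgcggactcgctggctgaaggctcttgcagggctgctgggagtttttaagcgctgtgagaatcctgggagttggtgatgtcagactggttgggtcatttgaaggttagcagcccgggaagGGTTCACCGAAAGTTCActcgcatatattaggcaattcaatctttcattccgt

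Hox genes, which give cells their position along the head to tail axis, rose mainly in the 2 clusters Hoxa and Hoxb, which hold 19 of the 21 rises. Summed over the 39 genes of the 4 clusters, they went from 18.6 to 22.6 TPM at day 0 to 353 to 357 TPM at day 1. Of the 39 genes, 21 rose, none fell, 2 were tested and not called, and 16 were too low to test. The median difference over all 39 was 1.36, beside 0.03 over all genes tested. Because 17 of the 23 tested genes passed the filter through 1 of the days alone, the count of rises among tested Hox genes is a description.

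In the *Hoxa* cluster on chromosome 6, 9 of 11 genes rose, and the summed level went from 4.64 to 6.89 TPM to 247 to 255 TPM. *Hoxa5* read 0.115, 0.446 and 0.116 TPM at day 0 and 83.3, 78.4 and 82.1 TPM at day 1, a difference of 6.08 ± 0.13 (adjusted p = 7.38e-07). *Hoxa4* went from 0.714 ± 0.270 to 40.3 ± 2.79 TPM and *Hoxa3* from 0.0837 ± 0.0557 to 24.3 ± 2.22 TPM. *Hoxa2*† had no read at day 0 and stood at 8.2 ± 1.43 TPM at day 1, at least 22.6-fold above the level of 3 reads per library. The posterior genes *Hoxa9*† and *Hoxa10*† reached 1.84 ± 0.105 and 4.98 ± 0.559 TPM.

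In the *Hoxb* cluster on chromosome 11 all 10 genes rose, from a summed 6.91 to 7.78 TPM to 83.3 to 86.7 TPM. *Hoxb4* read 0.0844, 0.326 and 0 TPM at day 0 and 28.7, 30.3 and 26.3 TPM at day 1 (difference 4.70 ± 0.16, adjusted p = 3.78e-06). *Hoxb1*† was without a read before RA and at 3.01, 2.97 and 3.14 TPM at day 1, at least 11-fold above the level of 3 reads. It lay below *Hoxb4* to *Hoxb9* in mean level, although it is the gene at the 3′ end. *Hoxb9*† was the Hox gene with the highest level before RA, 6.44 ± 0.344 TPM, and reached 18.2 ± 2.28 TPM.

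In the other clusters most genes were too low to test, and the summed levels of the days did not overlap. In *Hoxc*, on chromosome 15, *Hoxc4*† and *Hoxc5*† rose, to 8.08 ± 1.46 and 1.58 ± 0.253 TPM, and the cluster as a whole went from 3.03 to 5.42 TPM to 11.1 to 13.3 TPM. In *Hoxd*, on chromosome 2, no gene was called and the sum was 2.44 to 2.87 TPM at day 0 and 5.13 to 8.14 TPM at day 1. *Hoxd13* read 2.01, 1.26 and 2.1 TPM at day 0 and 1.28, 2.04 and 3.09 TPM at day 1, and *Hoxc13* was at 2.00 ± 0.357 and 1.13 ± 0.575 TPM, both with overlapping libraries. Hox transcripts overlap on both strands and the counting is not stated to use strand, so reads of neighbouring and antisense transcripts cannot be told apart. The small RNA gene *Gm27477*, which lies in the *Hoxa* cluster, and *Mir7655* are also among the 12 largest rises of genes that reached 10 TPM, but on 85 reads in all at day 1 for the former and 2 to 7 reads per library for the latter.

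**Figure D2:**
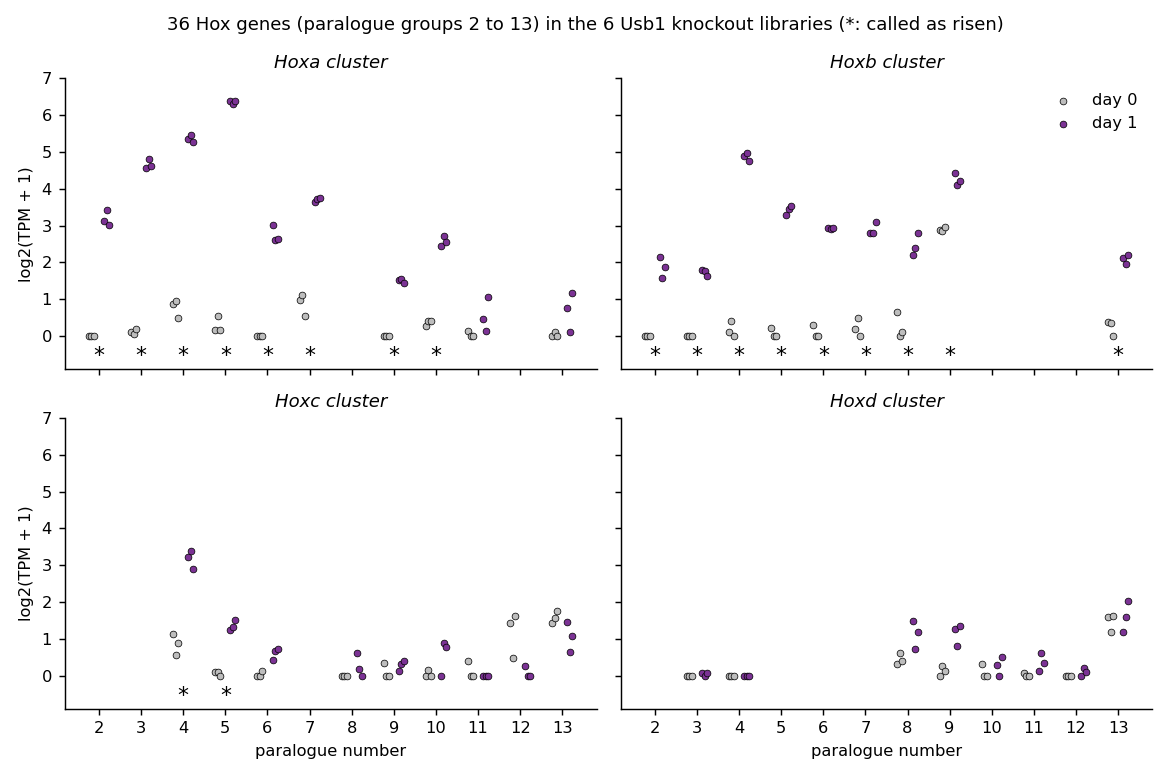
Levels of the 36 Hox genes of paralogue groups 2 to 13 in each of the 6 *Usb1* knockout libraries, by paralogue number (horizontal axis, 3′ to 5′ in the cluster) and on the log2(TPM + 1) scale (vertical axis). Grey points are day 0, purple points day 1, and stars mark the 19 of these genes that rose. Among the *Hoxa* genes plotted the points of day 1 are highest at paralogue 5, every *Hoxb* gene plotted carries a star, and the *Hoxd* points of both days stay low.

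Genes of the homeodomain partners of Hox proteins and of the Cdx factors rose in part. *Cdx1*, an activator of Hox genes, read 6.19, 4.90 and 5.21 TPM at day 0 and 61.4, 60.0 and 55.5 TPM at day 1 (difference 3.22 ± 0.10, adjusted p = 2.81e-06). *Pbx2* went from 38.8 ± 1.23 to 105 ± 2.22 TPM. *Meis2* and *Meis1*† rose from under 1 TPM to 3.74 ± 0.243 and 1.82 ± 0.136 TPM. Of the 14 genes listed, 5 rose and none fell. The 12 tested include 2 that passed the filter through 1 of the days alone. *Tgif1*, a homeodomain repressor that also acts on retinoid signalling, stood at 101 ± 1.67 TPM at day 0 and 74.3 ± 1.39 TPM at day 1, which is a change under 2-fold.

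The pluripotency network changed unevenly. Of 15 genes of naive pluripotency, the state of the inner cell mass and of stem cells in LIF, 8 fell and none rose, with a median difference of -1.04. In a bulk sample, fewer cells that express a gene and less RNA per cell cannot be told apart. *Klf4* read 296, 283 and 304 TPM at day 0 and 59.9, 69.4 and 61.8 TPM at day 1, so it fell by 2.19 ± 0.06 (adjusted p = 2.73e-06). *Klf5* read 462, 441 and 449 TPM and then 132, 129 and 115 TPM. *Nr0b1*, which encodes the orphan receptor Dax1, fell from 318 ± 18.5 to 98.1 ± 1.37 TPM. *Tcl1*, a cofactor of Akt kinase, fell from 181 ± 9.21 to 65.0 ± 6.19 TPM. *Zfp42*†, *Esrrb*†, *Tfcp2l1*† and *Prdm14*† stood just past the 2-fold threshold, with 548 ± 10.7, 240 ± 22, 175 ± 20.2 and 27.0 ± 1.91 TPM at day 1. *Klf2* was just under it, at 564 ± 33.2 and 291 ± 13.4 TPM.

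*Nanog* did not move with them. It read 764, 809 and 860 TPM at day 0 and 1006, 1026 and 1044 TPM at day 1. Every day 1 library was above every day 0 library, but the difference of 0.34 ± 0.06 (adjusted p = 0.00326) is far from 2-fold. *Tbx3*†, another factor of the naive network, was also slightly above its day 0 level, at 192 ± 14.1 against 150 ± 5.75 TPM. *Fgf4*, the ligand that drives stem cells out of the naive state, read 277, 264 and 262 TPM and then 284, 288 and 258 TPM, with overlap.

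Of 13 genes of core pluripotency, 3 fell. *Tdgf1*, the Nodal co-receptor Cripto, read 611, 595 and 592 TPM at day 0 and 122, 96.9 and 105 TPM at day 1, a fall by 2.47 ± 0.08 (adjusted p = 3.75e-06), though near-identical pseudogene copies may share its reads. *Zscan10* fell from 317 ± 2.04 to 104 ± 3.65 TPM. *Lin28a*, the RNA-binding repressor of let-7 maturation, fell from 164 ± 11.9 to 62.8 ± 4.11 TPM. The central factors were not called. *Pou5f1*† was at 1280, 1466 and 1425 TPM before RA and at 1085, 1121 and 1104 TPM at day 1, and *Sox2*† at 966 ± 74.9 and 644 ± 1.73 TPM. *Dppa5a*, an RNA-binding protein of stem cells, read 3876, 4310 and 4233 TPM and then 7050, 6762 and 7762 TPM, a difference of 0.80 ± 0.08 on transcripts that also have near-identical copies.

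**Figure D3:**
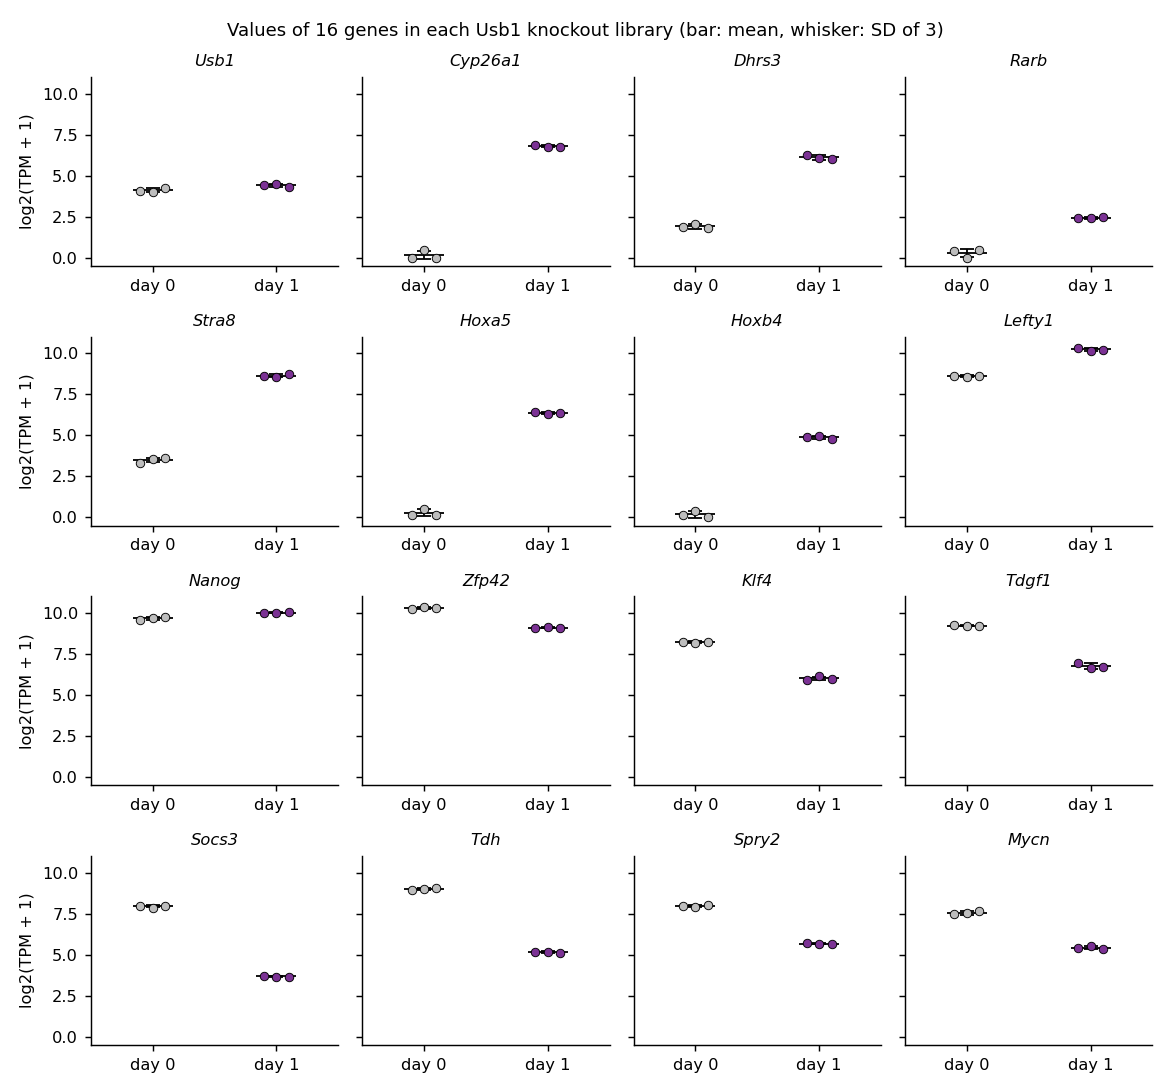
Levels of 16 genes in each *Usb1* knockout library on the log2(TPM + 1) scale (vertical axis) at day 0 (grey) and day 1 (purple), with the mean as a bar and the SD of 3 libraries as whiskers. The days are separate by several units for *Cyp26a1*, *Hoxa5* and *Stra8*, and *Usb1* and *Nanog* stand within 1 unit at both days.

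Genes of the formative and primed epiblast, which follows the naive state in the embryo, split. Of 13 genes 5 rose and 3 fell, with a median difference of -0.02. The 11 tested include 2 that passed the filter through 1 of the days alone. *Sall2* rose from 2.70 ± 0.504 to 19.4 ± 1.58 TPM, *Zic2* from 0.819 ± 0.0763 to 6.86 ± 0.682 TPM and *Sox3* from 2.74 ± 0.373 to 8.66 ± 0.770 TPM. *Zic2* and *Sox3* also act in the early neural plate. *Foxd3*, a repressor needed to leave the naive state, read 91.7, 104 and 97.4 TPM at day 0 and 8.67, 12.3 and 7.93 TPM at day 1, a fall by 3.24 ± 0.15 (adjusted p = 1.38e-05). *Otx2* and *Pou3f1*, which define the formative state, were at 5.72 ± 0.237 and 12 ± 0.733 TPM before RA and at 2.60 ± 0.586 and 7.34 ± 1.19 TPM at day 1, and were not called.

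The DNA methylation machinery changed in opposite directions within the de novo methyltransferases. *Dnmt3a* read 7.51, 7.70 and 8.2 TPM at day 0 and 33.4, 34.0 and 30.6 TPM at day 1 (difference 1.93 ± 0.08, adjusted p = 9.57e-06). *Dnmt3b* fell from 79.3 ± 2.33 to 38.9 ± 4.05 TPM, so that the levels of the 2 genes were near each other at day 1. The cofactor *Dnmt3l* fell from 15.7 ± 0.301 to 5.85 ± 0.845 TPM. Genes of dioxygenases that remove methylation, *Tet1* and *Tet2*, fell too. *Tet1* was at 203, 168 and 167 TPM and then at 44.9, 47.4 and 38.0 TPM, and *Tet2* at 71.7 ± 7.47 and 24.9 ± 4.25 TPM. *Uhrf1*, which guides maintenance methylation, was at 448 ± 10.6 and 299 ± 21.1 TPM, under 2-fold. Of 10 genes listed, 4 fell and 1 rose, with a median of -0.47.

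Genes of the LIF and STAT3 pathway, the signal that maintains mouse stem cells, fell in 8 of 16 cases, and their summed level went from 1249 to 1282 TPM down to 466 to 505 TPM. *Socs3*, the feedback inhibitor that STAT3 induces, read 249, 232 and 252 TPM at day 0 and 12.2, 11.7 and 11.5 TPM at day 1, a fall by 4.26 ± 0.05 (adjusted p = 1.23e-07). It had the largest fall of the protein-coding genes tested. The STAT3 targets *Junb* and *Bcl3* fell from 146 ± 1.70 to 18.2 ± 1.11 TPM and from 160 ± 7.29 to 40.7 ± 3.57 TPM. The kinase gene *Pim3* fell from 333 ± 8.21 to 114 ± 2.00 TPM, whereas its paralogue *Pim1* was at 136 ± 8.89 and 142 ± 8.65 TPM with overlapping libraries. The receptor *Lifr*† and *Stat3*† itself fell, to 15.3 ± 1.67 and 19.6 ± 1.02 TPM, while the kinase gene *Jak2* rose from 3.97 ± 0.264 to 9.91 ± 1.05 TPM. Whether the medium of day 1 still held LIF is not stated in the labels, so RA and a change of medium cannot be told apart here.

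Of 21 genes of the FGF and ERK pathway 4 fell and 2 rose. The 19 tested include 2 that passed the filter through 1 of the days alone. *Spry2*, an inhibitor of receptor tyrosine kinase signalling, read 247, 240 and 255 TPM and then 50.5, 48.9 and 50.1 TPM, a fall by 2.29 ± 0.04 (adjusted p = 4.94e-07). *Spry4* fell from 98.3 ± 6.81 to 14.4 ± 1.43 TPM, and the ERK-induced factor *Etv4* from 244 ± 3.60 to 99.9 ± 12.2 TPM. The ligand *Fgf17* fell from 51.8 ± 4.02 to 10.3 ± 2.18 TPM. The receptor genes *Fgfr1* and *Fgfr2* rose, with *Fgfr1* at 56.1 ± 5.31 and 114 ± 7.95 TPM and *Fgfr2* at 0.569 ± 0.177 and 4.70 ± 0.405 TPM. *Dusp9*†, an ERK phosphatase outside the list, was one of the most abundant genes to rise, from 222, 222 and 236 TPM to 1635, 1586 and 1514 TPM.

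In the Nodal pathway, which patterns the early embryo, both Lefty genes were called. These secreted inhibitors moved apart. *Lefty1* rose from 398, 367 and 393 TPM to 1291, 1123 and 1197 TPM (difference 1.64 ± 0.06, adjusted p = 7.75e-06), and *Lefty2* fell from 418, 417 and 396 TPM to 186, 158 and 164 TPM (by 1.27 ± 0.07, adjusted p = 2.53e-05). The genes are close paralogues, and reads common to both would draw the 2 values together. *Skil*, a repressor of SMAD signalling, rose from 25.1 ± 1.95 to 77.1 ± 7.16 TPM. *Inhbb*, the activin B subunit, was at 660 ± 26.9 and 388 ± 18 TPM, under 2-fold. Of the 21 genes of the list, 3 rose and 2 fell.

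In the BMP pathway the ligand gene *Bmp4* fell, and the 4 genes that rose include transcriptional targets of the pathway. *Bmp4* read 94.6, 101 and 101 TPM at day 0 and 26.0, 28.5 and 21.9 TPM at day 1, a fall by 1.92 ± 0.10 (adjusted p = 2.05e-05). The homeobox genes *Msx2* and *Msx1* rose from 0.586 ± 0.227 to 16.5 ± 0.0686 TPM and from 0.276 ± 0.118 to 3.10 ± 0.840 TPM. *Id2*, an inhibitor of helix-loop-helix factors, read 18.7, 25.8 and 21 TPM and then 145, 123 and 147 TPM. *Smad6*, a feedback inhibitor, rose from 10.1 ± 1.48 to 29.2 ± 2.36 TPM. *Id1* was at 284 ± 26.0 and 486 ± 24.2 TPM and *Id3* at 65.7 ± 5.02 and 97.0 ± 5.14 TPM, each under 2-fold. Of 21 genes listed, 4 rose and 1 fell, with a median of 0.38. The 16 tested include 3 that passed the filter through 1 of the days alone.

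Of 25 Wnt pathway genes, 19 were tested, 5 fell and 2 rose. Of those tested, 5 passed the filter through 1 of the days alone. The ligand gene *Wnt6* fell from 19.3 ± 0.807 to 2.72 ± 0.798 TPM and the receptor gene *Fzd5* from 185 ± 18.4 to 43.4 ± 5.93 TPM. *Notum*, which inactivates Wnt ligands, fell from 26.6 ± 0.430 to 12.2 ± 1.18 TPM, and the Wnt target *Sp5* from 2.38 ± 0.574 to 0.228 ± 0.242 TPM. *Fzd2* rose from 10.8 ± 1.54 to 34.0 ± 1.95 TPM. The most abundant member, *Ctnnb1*, encoding beta-catenin, was at 550 ± 5.68 and 540 ± 18.8 TPM, with overlapping libraries.

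Markers of the lineages that RA can produce differed from list to list. Of 21 primitive endoderm genes 15 were tested, of which 6 rose and 1 fell, and 4 of the 15 passed the filter through 1 of the days alone. *Gata6*, the factor that directs this lineage, read 0.194, 0.3 and 0.272 TPM at day 0 and 10.1, 7.58 and 7.83 TPM at day 1 (difference 2.91 ± 0.18, adjusted p = 4.34e-05). *Foxa2*, with 3 reads in 1 library at day 0, stood at 1.61, 1.45 and 1.54 TPM at day 1, a ratio of 17.4 with a counting interval of 5.64 to 86.9. The basement membrane gene *Lama1* moved the other way, from 115, 94.4 and 93.0 TPM to 31.5, 29.3 and 22.1 TPM, while *Col4a2*† rose from 13.6 ± 2.00 to 29.3 ± 3.45 TPM. The summed level of the list was 947 to 1111 TPM at day 0 and 617 to 796 TPM at day 1, and *Lamc1*, at 655 ± 66.2 and 425 ± 70.8 TPM, held most of it.

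Among 18 neural progenitor genes, 2 rose and 13 were too low to test. The 5 tested include 2 that passed the filter through 1 of the days alone, so the count of rises is a description. *Irx3* read 0.0784, 0.531 and 0.629 TPM at day 0 and 15.5, 16.1 and 14.5 TPM at day 1, and the Notch ligand *Dll1* rose from 0.255 ± 0.0551 to 2.02 ± 0.342 TPM. *Sox1* was at 13.5 ± 1.3 and 26.7 ± 0.542 TPM, a difference of 0.93 that stops short of the threshold. Of 18 mesoderm and primitive streak genes 9 were tested. *Twist1* and *Eomes* rose, to 10.1 ± 1.40 and 6.05 ± 0.568 TPM, and *Evx1* fell, from 1.56 ± 0.244 to 0.116 ± 0.147 TPM. Of 16 trophoblast genes 11 were tested, 5 fell and 3 rose, with *Eomes* counted in this list too. *Tead4* fell from 59.3 ± 7.05 to 14.4 ± 1.51 TPM and *Tfap2c* from 34.0 ± 0.598 to 14.7 ± 0.568 TPM, both factors that stem cells also express, and *Krt18* rose from 15.5 ± 0.712 to 43.4 ± 2.22 TPM. Fibroblast markers, listed because feeder cells could add RNA, summed to 24.2 to 29.5 TPM at day 0 and 40.1 to 42.3 TPM at day 1. Only 5 of the 14 were tested, and 4 were at 0 in all 6 libraries. *Pdgfrb* and *Loxl1* rose, to 14 ± 0.898 and 11.7 ± 0.773 TPM, while *Thy1* fell to 1.78 ± 0.219 TPM. The part of other cells in these levels was not tested.

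Of 22 genes of meiosis and the germline 9 rose, none fell and 12 were tested and not called, with a median of 0.66. *Stra8*, the RA-induced factor that starts meiosis, read 9.01, 10.7 and 11.2 TPM at day 0 and 386, 382 and 421 TPM at day 1, a difference of 5.14 ± 0.08 (adjusted p = 3.31e-07). Of the 12 largest rises of genes that reached 10 TPM it had the highest level at day 1. *Dazl*, an RNA-binding protein of germ cells, rose from 6.85 ± 0.889 to 25.9 ± 1.61 TPM, and *Taf7l*, a germ cell transcription factor subunit, from 3.05 ± 0.827 to 11.2 ± 0.530 TPM. Others were *Ddx4*†, the germ cell helicase Vasa, from 21.9 ± 2.62 to 52.6 ± 3.21 TPM, *Mael*†, which silences transposons, from 13.2 ± 0.927 to 36.1 ± 3.08 TPM, and the synaptonemal complex genes *Sycp2*† and *Sycp3*†, to 3.80 ± 0.0346 and 9.08 ± 1.02 TPM. *Rec8*, the meiotic cohesin subunit, was at 14.6, 15.3 and 19.4 TPM and then at 35.0, 34.5 and 29.6 TPM, a difference of 0.97 ± 0.12 that narrowly missed the fold threshold. The X-linked *Rhox5* was at 226 ± 4.88 and 205 ± 25.3 TPM.

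Of 18 genes of threonine, glycine and one-carbon metabolism, 1 was called. *Tdh*, threonine dehydrogenase, on which mouse stem cells depend for one-carbon units, read 498, 521 and 535 TPM at day 0 and 35.2, 35.2 and 32.8 TPM at day 1, a fall by 3.87 ± 0.05 (adjusted p = 1.23e-07). *Gm17232*, a transcript inside the span of *Tdh* on chromosome 14 and one of the 12 largest falls, went from 54.0, 42.5 and 42.2 TPM to 0, 0 and 4.24 TPM, and may share its reads. *Shmt2* and *Phgdh*, enzymes of the serine route to one-carbon units, were at 390 ± 11.7 and 325 ± 1.46 TPM before RA and at 426 ± 4.90 and 339 ± 6.29 TPM at day 1.

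Of 20 cell cycle genes 4 rose, 2 fell and 14 were tested and not called. *Mycn* read 175, 183 and 202 TPM at day 0 and 42.1, 45.3 and 39.5 TPM at day 1, a fall by 2.12 ± 0.07 (adjusted p = 4.58e-06), and *Myc* fell from 60.7 ± 5.14 to 17.2 ± 0.778 TPM, whereas *Mycl*, the third Myc gene, rose from 4.89 ± 0.522 to 11.1 ± 2.04 TPM. *Cdkn1c*, an imprinted inhibitor of cyclin-dependent kinases, read 36.0, 45.5 and 46.5 TPM and then 174, 185 and 198 TPM. The D-type cyclin *Ccnd2* rose from 6.37 ± 0.834 to 21.4 ± 2.21 TPM and the CDK4/6 inhibitor *Cdkn2c* from 1.43 ± 0.479 to 5.40 ± 1.22 TPM. The G1/S cyclin gene *Ccne1* was at 348 ± 17 and 262 ± 4.66 TPM.

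Of 20 p53 targets, 19 of them tested, *Sesn1* rose, from 13.8 ± 1.54 to 41.9 ± 2.1 TPM, and *Btg2* fell, from 50.4 ± 0.233 to 24.7 ± 1.41 TPM. These 2 calls among 19 genes are near the share of 9.24% over all genes tested. Of 16 genes of ER stress and the ATF4 response, with a median of 0.39, 15 were tested and 3 rose, *Vldlr* and the heat shock genes *Hspa1b* and *Hspa1a*, near-identical copies that can share reads. *Hspa5*, the ER chaperone BiP, was at 616 ± 24.2 and 857 ± 53.4 TPM. None of 18 genes of U6 snRNA biogenesis and binding was called by limma, and their median difference was -0.02. The adjusted p threshold was passed by 11 with changes under 2-fold, 5 of them higher and 6 lower at day 1. Of all genes tested 38.8% passed that threshold. *Tut1*†, which adds the uridine tail that Usb1 trims, read 90.6, 80.2 and 87.4 TPM at day 0 and 51.6, 50.3 and 51.1 TPM at day 1, a difference of -0.74 ± 0.06 (adjusted p = 0.000126). Of 18 epithelial and mesenchymal genes *Snai2* rose, to 2.1 ± 0.00848 TPM, and *Twist1* rose as above. *Esrp1*, an epithelial splicing regulator, fell from 2.69 ± 0.317 to 0.501 ± 0.382 TPM, while E-cadherin (*Cdh1*) was at 410 ± 27.6 and 465 ± 32.9 TPM. The 16 genes of this list that were tested include 3 that passed the filter through 1 of the days alone.

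**Figure D4:**
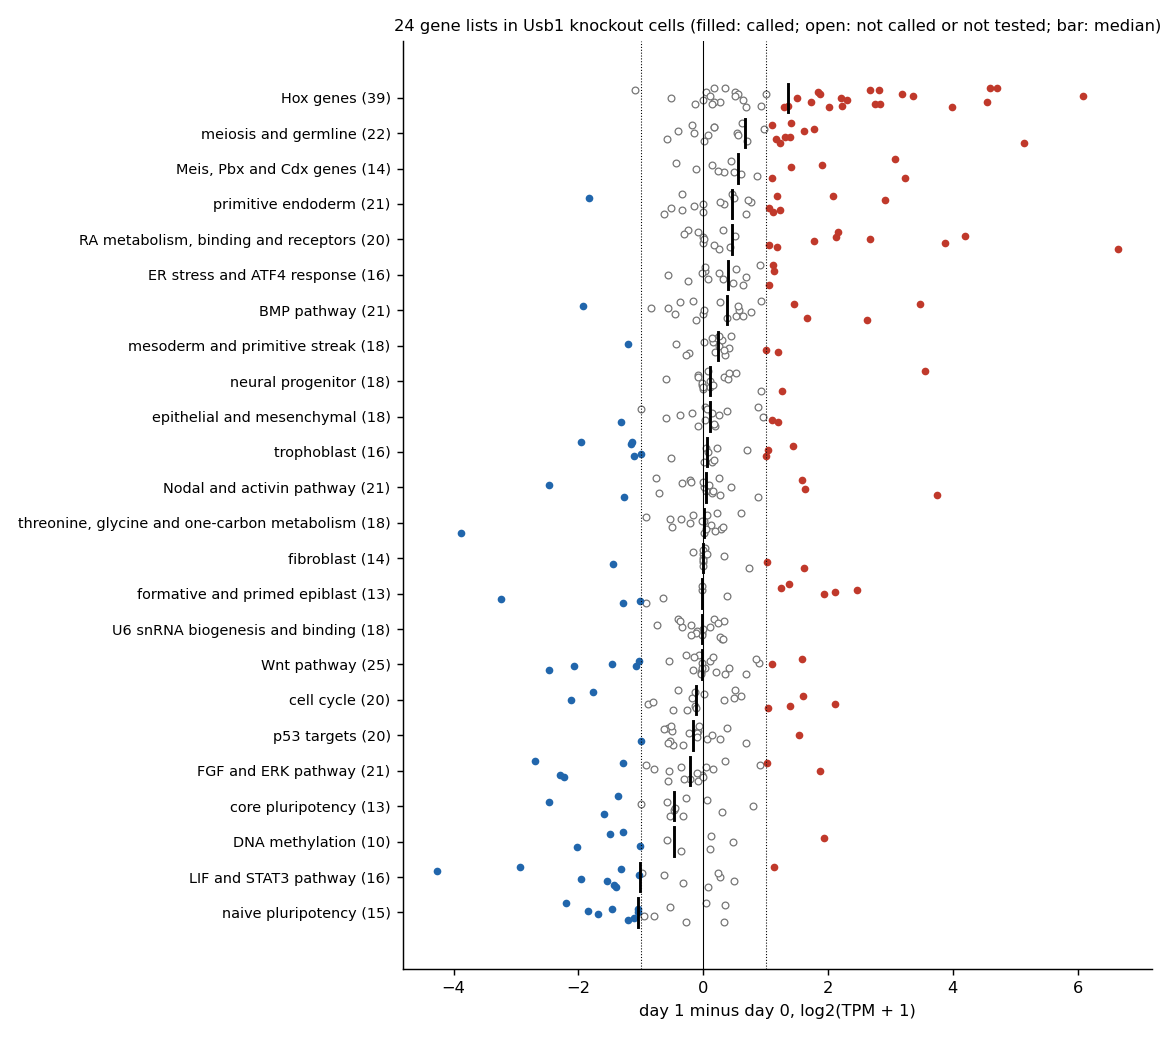
Difference between day 1 and day 0 (horizontal axis, log2(TPM + 1)) of every gene in the 24 lists (rows, ordered by median, with the number of genes in brackets). Filled points were called (red rose, blue fell), open points were not called or not tested, black bars are list medians and dotted lines mark 2-fold. Hox genes have the highest median, 1.36, and naive pluripotency genes the lowest, -1.04.

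Among the 12 largest rises that reached 10 TPM, the protein-coding genes outside the lists were *Zfp703*, a transcriptional repressor, and *Mrc2*, a collagen receptor. *Zfp703* read 0.639, 0.0617 and 0.384 TPM at day 0 and 30.3, 28.6 and 30.5 TPM at day 1 (difference 4.52 ± 0.18, adjusted p = 7.75e-06), and *Mrc2* 1.98, 1.57 and 1.98 TPM and then 46.5, 43.5 and 38.0 TPM. Among the 12 largest falls 4 are protein-coding, *Socs3*, *Tdh*, *Krt17* and *Ly6g6e*. *Krt17*, a keratin of stratified epithelia, read 196, 232 and 241 TPM at day 0 and 10.9, 16.3 and 19.4 TPM at day 1, a fall by 3.79 ± 0.19 (adjusted p = 2.15e-05). *Ly6g6e*, a small surface protein, fell from 18.5 ± 1.14 to 0.747 ± 0.220 TPM. Of the non-coding genes among these falls, *Gm46332* had the most reads and went from 66.9 ± 5.26 to 2.27 ± 1.06 TPM. The other 6, *Gm23615*, *Mir181d*, *Gm26457*, *Gm23823*, *Gm22771* and *Gm23564*, are short genes with 1 to 17 reads in a day 0 library, and their size of change is poorly determined.

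Small nucleolar RNAs, which guide the modification of ribosomal RNA and are processed from introns of host genes, had a lower summed level at day 1. Of 199 tested 37 fell and 3 rose, and their summed level was 5590, 4600 and 4465 TPM at day 0 and 2944, 3575 and 2643 TPM at day 1, without overlap. Of 161 snRNA genes tested 18 fell and 4 rose, and of 631 antisense genes 56 fell and 19 rose. The pattern is not particular to these classes. Falls and rises were 49 and 31 of 553 lincRNA genes, and 70 and 29 of 1431 processed pseudogenes. Among 198 miRNA genes they were 12 and 8, and among 105 unprocessed pseudogenes 5 and 6. Over all genes tested 3.93% fell and 5.30% rose. The summed snRNA level was 1708, 1127 and 1356 TPM at day 0 and 846, 1085 and 767 TPM at day 1, without overlap. The antisense sums overlapped, with 3070 TPM in day 0 replicate 2 and 3158 TPM in day 1 replicate 2. Such short RNAs are poorly captured by a library of this kind, their intronic reads cannot be told from those of the host gene, and the classes were looked at after values had been seen.

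Some further groups, also chosen after seeing the values, had several members among the called genes. Because the groups were chosen this way, their counts are a description, beside 9.24% called over all genes tested. Of 10 keratin genes tested, *Krt17*, *Krt42*†, *Krt13*† and *Krt19*† fell and *Krt18* and *Krt20*† rose. Among 7 genes for binding proteins of insulin-like growth factors 4 were tested. *Igfbp2*†, *Igfbp3*† and *Igfbp4*† rose, the most abundant, *Igfbp2*, from 212, 187 and 209 TPM to 768, 625 and 737 TPM. *Igfbp7*† fell from 11.1 ± 2.78 to 3.49 ± 0.606 TPM.

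Of the called genes 57 had a mean of at least 200 TPM at the higher day, 27 rising and 30 falling. Beside *Dusp9*, the growth factor gene *Mdk*† rose from 219 ± 6.18 to 970 ± 37.8 TPM, the water and glycerol channel *Aqp3*† from 76.8 ± 1.81 to 413 ± 42.4 TPM, and the autophagy receptor *Calcoco2*† from 62.6 ± 1.6 to 447 ± 15.4 TPM. *Trh*†, the gene of thyrotropin-releasing hormone, fell from 425 ± 18.7 to 56.6 ± 2.39 TPM, osteopontin (*Spp1*†) from 1095 ± 74.1 to 402 ± 18.8 TPM, and glutamine synthetase (*Glul*†) from 462 ± 19.6 to 171 ± 9.44 TPM.

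The response was then set against that of wild-type cells, by an interaction term in a fit of all 17 libraries with 21871 genes. The response differed at least 2-fold between the genotypes for 188 genes (0.860%), 41 with a higher and 147 (0.672%) with a lower value of knockout minus wild-type. This split depends on the scaling. The median of all genes was -0.12, and the split was 77 against 76 after quantile normalization and 50 against 92 with equal medians. Wild-type replicate 1 of day 0 stood apart, with 17090 genes above 0 TPM where every other library had 21898 to 24900, and without it the split was 43 against 86. Without wild-type replicate 2 of day 0, that library alone represented untreated wild-type cells and 1822 genes were called. Of the 394 list members tested 23 (5.84%) were called, 9 higher and 14 lower, and 11 of them (5 higher, 6 lower) remained called under each of these 3 alternatives. These 11 are described here, and the lists were drawn up with earlier results known. Wild-type replicate 2 of day 0 also held few genes of 1 read, 1352 beside 239 in replicate 1. The other libraries of day 0 and day 1 had 2150 to 2437. The wild-type baseline left without replicate 1 is therefore also short of low genes.

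Of the 6 lower ones, *Hoxb1*† differed most. It was at 0 in all libraries of day 0 of both genotypes, and reached 18.6, 13.8 and 14.8 TPM in wild-type cells at day 1 where the knockout had 3.01, 2.97 and 3.14 TPM, a difference in response of -2.04 ± 0.17 (adjusted p = 0.000138). *Crabp2*† rose to 71.1, 61.0 and 65.5 TPM in wild-type cells and to 11.6, 6.90 and 8.28 TPM in the knockout (difference -1.94 ± 0.34, adjusted p = 0.0114). *Stra6*† reached 16.7, 14.4 and 13.8 TPM in wild-type cells and 4.11, 4.66 and 2.50 TPM in the knockout, and *Msx1* 19.8 ± 1.96 and 3.10 ± 0.840 TPM. *Rec8* was at 100, 102 and 103 TPM in wild-type cells at day 1, above all knockout values. *Sox7*†, an endoderm and endothelial factor, was at 29.2, 29.9 and 30.04 TPM in wild-type libraries of day 1. In the knockout it was at 5.46, 4.49 and 4.77 TPM, below its day 0 level of 6.83, 7.61 and 7.76 TPM. Its difference in response depends on the wild-type baseline, at -1.90 in the main fit and -1.30 without wild-type replicate 1 of day 0.

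Of the 5 higher ones, *Tdh*, *Inhbb*, *Etv4* and *Notum* were lowered less in the knockout. *Inhbb* went to 119, 118 and 112 TPM in wild-type cells and to 400, 397 and 368 TPM in the knockout (difference 1.48 ± 0.16, adjusted p = 0.000578). *Tdh* was at 10.7, 11.4 and 10.02 TPM in wild-type cells at day 1, below the 35.2, 35.2 and 32.8 TPM of the knockout (difference 1.34 ± 0.16, adjusted p = 0.000932). *Cyp26a1* is the other gene, and here the genotypes differed at day 0 and not at day 1. Wild-type cells read 3.66 and 1.78 TPM at day 0, above the knockout, and 104, 118 and 112 TPM at day 1, where the libraries of the genotypes overlapped. *Stra8* had a similar log2 response in both genotypes (difference 0.09 ± 0.11, adjusted p = 0.695) at different levels, since wild-type cells were at 25.4 and 25 TPM before RA and at 841, 861 and 905 TPM at day 1.

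The levels at day 3 of the knockout show which early values lasted, given side by side without a test. *Cdx1* was at 10.3 ± 1.32 TPM at day 3, near its day 0 level, after 59.0 ± 3.10 TPM at day 1, and *Dazl* at 8.33 ± 1.3 TPM after 25.9 ± 1.61 TPM. *Lefty1* went back from 1204 ± 84.1 to 114 ± 25.3 TPM, and *Stra8* stood at 218 ± 8.51 TPM. *Hoxa5*, at 91.1 ± 5.74 TPM, stayed near its day 1 level. Other genes had only begun to move at day 1. *Foxa2* was at 114 ± 12 TPM at day 3, *Gata6* at 51.3 ± 2.62 TPM, *Crabp2* at 140 ± 8.69 TPM and *Hoxb1* at 40.9 ± 2.18 TPM. *Lama1* and *Wnt6*, which had fallen at day 1, were at 372 ± 45.2 and 72.0 ± 4.90 TPM at day 3, above their day 0 levels. *Nanog*, higher at day 1 than at day 0, was at 87.2 ± 5.70 TPM at day 3.

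**Figure D5:**
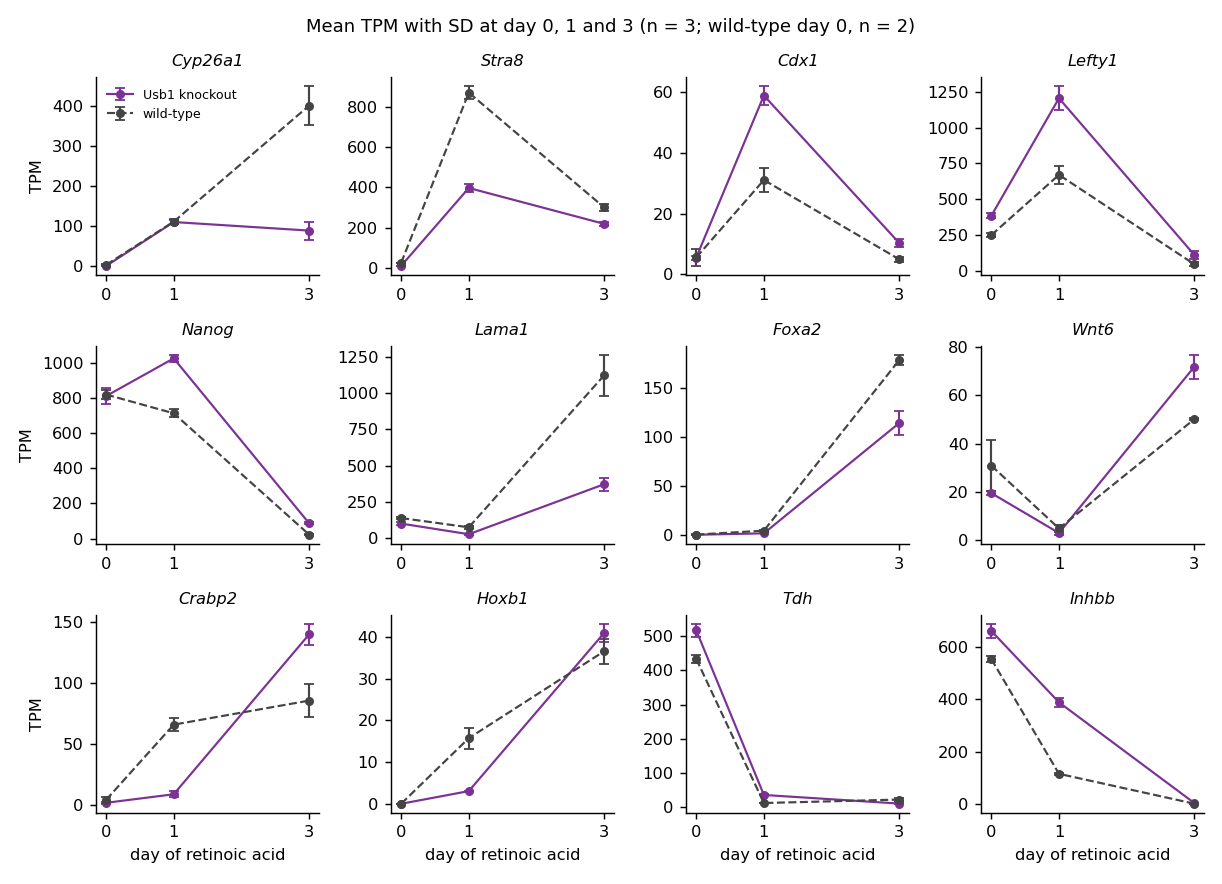
Mean TPM (vertical axes, linear and separate for each gene) of 12 genes at day 0, 1 and 3 of RA (horizontal axis) in *Usb1* knockout (purple, solid) and wild-type cells (grey, dashed), with SD as whiskers (n = 3, n = 2 for wild-type day 0). *Stra8*, *Cdx1* and *Lefty1* are highest at day 1, *Wnt6* and *Lama1* are lowest at day 1, and *Hoxb1* and *Crabp2* of the knockout lie below wild-type at day 1 and not at day 3.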

How the data were processed

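RNA of R1 mouse embryonic stem cells was extracted with RNeasy columns, made into libraries with a NEBNext Ultra kit and sequenced on an Illumina NovaSeq instrument. TPM values for 54532 genes in 17 libraries were deposited by the authors, made with HISAT2 2.1.0 and StringTie 1.3.6 on GRCm38.p6 per the submitters' processing notes. Strand use and the treatment of reads shared by near-identical genes are not given in the sources used here. TPM was multiplied by the exon length in GENCODE M21 and divided by the step of 1 read, which was fitted to each library. This gave whole reads, within 0.01, for 95.9% to 96.7% of values, which supplied the read totals.

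Groups follow the labels. Genes that reached 1 TPM in 3 or more of the 6 knockout libraries of day 0 and day 1 were fitted as log2(TPM + 1) with limma 3.58.1 (trend, R 4.3.3). A gene was called at a Benjamini-Hochberg adjusted p under 0.05 and a change of at least 2-fold. The difference between genotypes was an interaction term over all 17 libraries, for genes that reached 1 TPM in 2 or more of them. For a gene without a read at day 0 the fold is a bound against 3 reads per library, and for a gene with 1 to 3 reads it is a ratio with a 95% counting interval. Bounds and intervals cover counting error only, since the reads carry no molecular identifiers. Tables and plots were made with Python 3.11.15, numpy 2.4.6, pandas 2.3.3, scipy 1.17.1 and matplotlib 3.10.9.

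The rule for naming genes took the 12 largest called changes in each direction, among genes without overlap and with a mean of 10 TPM or more at the higher day, and from each of 24 lists (431 genes) up to 4 called genes per direction and the 2 most abundant others. Some genes that this rule takes are not reported here. Members and lists were chosen with earlier results of these data known. A gene under 1 TPM in every library of 1 day could be tested only through the other day. Counts of called genes within a list are therefore descriptions. Over all genes tested 9.24% were called, 5.30% rose and 3.93% fell. Samples with the same replicate number at day 0 and day 1 did not deviate together (r = -0.0179, -0.0840 and 0.0287), and the fit treated them as unpaired. These values cannot show whether the replicates were grown or processed as pairs. Alternatives covered the filter, the pseudocount, the scaling, the fit, a replicate block and each library left out.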

Additional observations from a re-analysis of the deposited data

Results flagged for a closer look

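The response to 1 day of RA, as knockout minus wild-type on the log2(TPM + 1) scale, passed the interaction test of limma for 21 genes named in the text, 8 with a higher and 13 with a lower value in the *Usb1* knockout. The median of all genes in this fit was -0.12, so each value is higher by that amount when taken relative to the median. The higher values were *Tcl1* 1.74, *Cyp26a1* 1.69, *Fgf17* 1.6, *Inhbb* 1.48, *Tdh* 1.34, *Foxd3* 1.21, *Etv4* 1.07 and *Notum* 1.06. The lower values were *Hoxb1* -2.04, *Crabp2* -1.94, *Sox7* -1.90, *Stra6* -1.84, *Msx1* -1.83 and *Krt20* -1.78. They also took in *Cyp26b1* -1.53, *Zfp703* -1.50, *Rec8* -1.49, *Fzd2* -1.34, *Meis2* -1.26, *Hoxa4* -1.13 and *Id3* -1.01. Without wild-type replicate 1 of day 0, the library that stood apart, 15 of the 21 were still called. The 6 that were not are *Cyp26b1* (-1.21, adjusted p = 0.155), *Hoxa4* (-0.95, adjusted p = 0.0877), *Tcl1* (1.84, adjusted p = 0.0712), *Foxd3* (1.32, adjusted p = 0.0597), *Fgf17* (1.51, adjusted p = 0.115) and *Fzd2* (-0.90, adjusted p = 0.0135).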

How the results depend on the processing

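Of 137 called genes named in the text, 121 kept their call under each of the 16 alternatives run that gave them a value and none changed direction. The 16 that lost it lay near 2-fold: *Btg2*, *Col4a2*, *Dnmt3b*, *Eomes*, *Esrrb*, *Fgfr1*, *Hspa1a*, *Krt19*, *Loxl1*, *Lrat*, *Mycl*, *Notum*, *Prdm14*, *Rbp4*, *Snai2* and *Sycp3*. *Rbp4* without day 1 replicate 3 stood at 1.06 (limma, adjusted p = 0.0608), and every other loss was of the fold threshold alone. The count of 1592 (914 rose, 678 fell) was 1003 (566 and 437) with a filter of 5 TPM, 6694 (3741 and 2953) by adjusted p alone, with 379 falls in a fit of protein-coding genes alone, where fewer genes are tested. By scaling it was 767 and 773 (equal medians) or 800 and 751 (quantile). Leaving out each of the 6 libraries gave 1503 to 1627 (836 to 981 rose, 570 to 774 fell). The replicate block gave 1599, and 143 for the difference between genotypes, where the main count was 188; leaving out each of 11 libraries there gave 101 to 1822, the highest without wild-type replicate 2 of day 0. Named genes that gained a call under an alternative were *Cyp26b1*, *Klf2*, *Otx2*, *Sox1* and *Rec8*. *Cyp26b1* had overlapping libraries and a difference of 0.50 in the fit reported here, and the others were near 2-fold. Values of 4 genes that were not called crossed 0: *Hoxd13* (0.14; -0.0691 to 0.35 with a library left out), *Fgf4* (0.05; -0.0175 at equal medians), *Ctnnb1* (-0.03; 0.0093 with voom on recovered reads, -0.0434 to 0.0035 with a library left out) and *Phgdh* (0.06; -0.0034 at equal medians). The cause was not tested. Depth limits genes of few reads at day 0, whose size of change is a bound or an interval.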
